A study of Mus musculus with 16 samples.

Results

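The EGF family of signals was followed through 10 genes, 6 for ligands (*Egf*, *Tgfa*, *Areg*, *Btc*, *Hbegf* and *Ereg*) and 4 for ErbB receptors (*Egfr*, *Erbb2*, *Erbb3* and *Erbb4*), of the 31274 genes in an RNA-seq table of the mouse seminal vesicle (SV). The 10 genes are listed by name as members of the family, by a rule that uses no measured value, though with earlier results of these data known, and all 10 are in the table. RNA came from the SV of 5-week-old C57BL/6 males in 4 groups of 4 samples. WT-veh and WT-DES mice carried a working *Esr1*, the gene for estrogen receptor α (ERα), and αERKO-veh and αERKO-DES mice, bred from heterozygotes, carried a disrupted *Esr1* in all tissues. WT pups came from pregnant C57BL/6 females bought from a supplier, so genotype cannot be told apart from the source of the mice. DES (diethylstilbestrol, a synthetic estrogen) was injected daily on days 1 to 5 of life, 2 µg for each pup, and veh groups received the corn oil carrier alone. The SV was freed of the anterior prostate, which lies against it. RNA extraction is described in the study's methods from 3 pools of mice in WT-DES and from 4 individual mice in each other group, whereas the labels give 4 WT-DES samples, so p-values measure the spread between these samples.

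EGF family ligands are made as membrane proteins, are released from the cell surface by proteases such as ADAM17, and bind receptor tyrosine kinases that work in pairs. EGF, TGFα and amphiregulin (*Areg*) bind EGFR, while betacellulin (*Btc*), HB-EGF (*Hbegf*) and epiregulin (*Ereg*) bind both EGFR and ERBB4. ERBB2 has no known ligand and ERBB3 has little kinase activity of its own, so both signal with a partner receptor. In the male reproductive tract EGF is a secreted product of the epithelium under androgen control, and amphiregulin is a well known estrogen target in the mammary gland.

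Expression is given as FPKM, the fragments counted per kilobase of transcript and scaled to the fragments mapped in the library, a per-length scale on which levels of different genes can be set side by side. A change is a difference in log2(FPKM + 1) from limma, with its standard error (SE), and it understates the change of genes below a few FPKM. A gene was called changed at a Benjamini-Hochberg adjusted p of at most 0.05 over the 15988 genes tested and a 1.5-fold or larger ratio between the means. Testing needed a mean above 1 FPKM in at least 1 group, and 8 of the 10 members passed. *Ereg* and *Erbb4* did not. A call between groups also needed a mean above 1 FPKM in either group compared. *Areg* exceeded that level in WT-DES only, so it could not be called in comparisons without WT-DES.

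*Esr1*, which checks the labels, was at 4.43, 4.55, 3.70 and 2.81 FPKM in the WT-veh samples and at 8.74, 19.6, 13.0 and 15.7 in WT-DES. It was at 1.30, 1.59, 1.75 and 1.43 in αERKO-veh and at 0.91, 1.15, 1.51 and 1.64 in αERKO-DES. All 8 αERKO samples lay below all 8 WT samples. The sum of FPKM per sample ranged from 375207 to 652708, and no 2 samples held identical values. Fragment counts are not part of the values, so the depth behind each level is unknown. The 8 measured genes for SV secretory proteins summed to 49597 to 57994 FPKM in WT-veh, so the tissue carried its defining markers. WT-DES sample 1 stood apart from its group, with 3089 FPKM summed over 6 smooth muscle markers against 777 to 1172 in the other 3 WT-DES samples. Calls of members that changed without it, and those of the pathway genes with DES in WT, are given beside the result.

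The genes of the family are spread over several chromosomes, except that *Areg*, *Ereg* and *Btc* form a cluster with *Epgn* (epigen, another EGFR ligand) on chromosome 5. In GENCODE M21 on GRCm38 this cluster runs from chr5:91027464 to 91402994, a span of 375.5 kb whose 4 protein-coding genes are these ligands. Within it *Ereg* lies at chr5:91074622-91093646 and *Areg* at chr5:91139599-91148432, both on the plus strand, and *Btc* at chr5:91357261-91402994 on the minus strand. *Egf* lies at chr3:129677565-129755316 (minus strand) and *Tgfa* at chr6:86195223-86275719 (plus strand). *Egfr* and *Erbb2* share chromosome 11, at 16752203-16918158 and 98412470-98437716, both on the plus strand, while *Erbb3* lies at chr10:128567523-128589652 and *Erbb4* at chr1:68032186-69108059, both on the minus strand. An antisense transcript, *6330410L21Rik*, overlaps 500 nt of *Egf* exons and was at 0 to 0.18 FPKM, and *Gm42697*, on the same opposite strand, overlaps 607 nt. Exons on the opposite strand also overlap those of *Ereg* (*Gm19610*, 141 nt), *Tgfa* (*Gm43917*, 118 nt) and *Erbb2* (*Mien1*, 9 nt). Whether counting used the strand is not given in the sources used here, and without strand the reads of such a pair cannot be told apart.

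The bases upstream of the start of the 5 members called changed in WT-DES are shown because these promoters belong to 4 genes that rose and 1 that fell. They come from RefSeq promoter windows (GRCm38.p6) that hold 250 bases before and 50 after the start and that were used for 7 members (*Egf*, *Areg*, *Btc*, *Tgfa*, *Egfr*, *Erbb2* and *Erbb4*). The 250 bases before the start are printed 5′ to 3′ on the strand of the gene, and capitals mark a TATA box (TATAAA), a cyclic AMP response element (TGACGTCA) or a GC box (GGGCGG) on either strand.
*Egf* (chr3:129755323-129755572, minus strand): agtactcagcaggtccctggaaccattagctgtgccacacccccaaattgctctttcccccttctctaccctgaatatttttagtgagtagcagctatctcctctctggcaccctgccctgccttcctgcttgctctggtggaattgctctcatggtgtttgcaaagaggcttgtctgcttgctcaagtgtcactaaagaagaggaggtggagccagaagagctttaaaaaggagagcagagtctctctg
*Areg* (chr5:91139349-91139598, plus strand): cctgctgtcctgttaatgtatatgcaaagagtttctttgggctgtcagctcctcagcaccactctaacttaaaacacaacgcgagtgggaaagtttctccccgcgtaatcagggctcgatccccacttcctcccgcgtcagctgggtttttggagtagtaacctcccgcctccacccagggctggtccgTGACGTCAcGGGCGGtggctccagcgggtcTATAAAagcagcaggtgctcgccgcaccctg
*Btc* (chr5:91402995-91403244, minus strand): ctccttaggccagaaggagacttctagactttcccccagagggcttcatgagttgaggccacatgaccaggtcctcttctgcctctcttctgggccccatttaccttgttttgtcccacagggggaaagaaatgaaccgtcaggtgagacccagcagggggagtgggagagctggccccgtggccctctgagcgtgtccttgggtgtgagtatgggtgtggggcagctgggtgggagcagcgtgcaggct
*Tgfa* (chr6:86194972-86195221, plus strand): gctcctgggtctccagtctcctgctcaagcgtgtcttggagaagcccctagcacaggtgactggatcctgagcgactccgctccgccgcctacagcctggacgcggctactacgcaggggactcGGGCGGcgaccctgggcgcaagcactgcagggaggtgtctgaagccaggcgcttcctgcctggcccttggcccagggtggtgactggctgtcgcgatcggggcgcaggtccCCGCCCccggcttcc
*Egfr* (chr11:16751953-16752202, plus strand): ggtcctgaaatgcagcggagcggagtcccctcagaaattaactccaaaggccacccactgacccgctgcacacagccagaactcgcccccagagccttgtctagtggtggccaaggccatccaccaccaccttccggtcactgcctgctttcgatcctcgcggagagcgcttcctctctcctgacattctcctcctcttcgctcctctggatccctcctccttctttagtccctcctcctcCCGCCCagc

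The *Egf* window had no CpG among its 300 bases, as had 5.43% of the 32851 promoters in the same table, against a median of 7 CpG. The windows of the other 6 members held from 5 CpG (*Btc*) to 24 (*Tgfa*), and a second *Egf* window, inside the gene at chr3:129725037-129725336, held 17. *Areg* had 21 CpG and, among the members searched, was the one with a TATA box, at −31 from the start, and with a cyclic AMP response element, at −61, followed by a GC box at −52. A TATA box by these letters was present in 13.6% of all promoters, the cyclic AMP response element in 1.79% and the GC box in 35.7%. *Tgfa* had GC boxes at −126 and −15 and *Egfr* had one at −9. The full estrogen response element, in which the half-site GGTCA and its reverse complement TGACC flank 3 free bases, was found in none of the members' windows searched and in 0.07% of all promoters. Half-sites on either strand, present in 40.5% of promoters, were found in *Egfr* at −192 and −115, in *Btc* at −187, in *Erbb4* at −68 and in *Areg* at 25 bases after the start. These matches describe letters in a 300-base window only, and *Hbegf*, *Ereg* and *Erbb3* were not searched.

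Among the ligands, *Egf* fell with neonatal DES in WT mice while *Areg*, *Btc* and *Tgfa* rose. With DES in αERKO mice *Egf*, *Btc* and *Tgfa* were not called, and *Areg* was below the level needed for a call. *Egf* was the most abundant ligand of the vehicle SV, at 38.1, 31.8, 25.4 and 28.8 FPKM in the WT-veh samples. In WT-DES it was at 2.43, 2.08, 1.90 and 2.51 FPKM, and no WT-DES sample came near the lowest WT-veh sample. The mean of 31.0 ± 5.38 FPKM (SD, n = 4) in WT-veh and 2.23 ± 0.289 (SD, n = 4) in WT-DES gave a 13.9-fold lower level, with a log2 change of −3.30 (SE 0.22, adjusted p = 6.72e-09). This was the largest change of any member in this comparison. Among the αERKO samples *Egf* was at 40.8, 68.8, 96.9 and 48.1 FPKM in αERKO-veh and at 54.1, 66.1, 56.7 and 81.1 in αERKO-DES. All 8 αERKO samples lay above all 4 WT-veh samples. The change in αERKO-veh against WT-veh was 0.95 on the log2 scale (SE 0.22, adjusted p = 0.00984) and that in αERKO-DES against WT-veh was 1.03 (SE 0.22, adjusted p = 0.0127). Without αERKO-DES sample 4 the latter had an adjusted p of 0.0502 and was not called. Between αERKO-DES and αERKO-veh the log2 change of *Egf* was 0.08, with a 95% interval of −0.38 to 0.54 (adjusted p = 0.855). αERKO-DES exceeded WT-DES 28.9-fold (log2 change 4.33, SE 0.22, adjusted p = 3.31e-10).

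*Areg*, the ligand with the largest rise, was near the bottom of the scale in vehicle mice, at 0.24, 0.14, 0.18 and 0.58 FPKM in WT-veh and 0.18, 0.27, 0.23 and 0.80 in αERKO-veh. The 4 WT-DES samples were at 4.14, 4.18, 2.23 and 2.72 FPKM, all above every sample of the other groups. In αERKO-DES it was at 0.09, 0.14, 0.10 and 0.00 FPKM, below each αERKO-veh sample. The mean rose from 0.285 ± 0.201 FPKM in WT-veh to 3.32 ± 0.993 in WT-DES (SD, n = 4 each), a ratio of 11.6 and a log2 change of 1.73 (SE 0.18, adjusted p = 5.27e-07). Without WT-veh sample 4, the highest of its group, the ratio was 17.8 (adjusted p = 1.05e-06). With DES in αERKO the log2 change was −0.32 (SE 0.18, adjusted p = 0.266). Both means, 0.37 FPKM in αERKO-veh and 0.0825 in αERKO-DES, were below 1 FPKM, so *Areg* could not be called there. Over the alternatives this log2 change ran from −1.27 to −0.18 and its limma adjusted p from 0.00246 to 0.586.

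Betacellulin (*Btc*) shares the chromosome 5 cluster with *Areg*. Its level was 1.02, 0.95, 0.72 and 0.75 FPKM in WT-veh and 2.36, 2.88, 2.30 and 3.17 in WT-DES, and the groups did not overlap. The ratio of means was 3.11 and the log2 change 0.98 (SE 0.13, adjusted p = 1.08e-05). αERKO-veh samples were at 1.42, 1.96, 0.88 and 1.21 FPKM and αERKO-DES samples at 1.05, 0.90, 0.79 and 1.18, so that both αERKO groups overlapped WT-veh and stayed below the lowest WT-DES sample. *Btc* was not called between the vehicle groups, but it was called higher in αERKO-veh with sample weights (adjusted p = 0.0139) and without αERKO-veh sample 3 (log2 difference 0.44, adjusted p = 0.031).

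*Ereg*, the neighbor of *Areg*, was below 0.25 FPKM in 15 of 16 samples. The exception was WT-DES sample 1 at 1.20 FPKM, and the other 3 WT-DES samples were at 0.15, 0.07 and 0.19. *Epgn* was at no more than 0.12 FPKM in any sample. Of the 4 clustered ligand genes, therefore, *Areg* and *Btc* were called higher in WT-DES, and *Ereg* and *Epgn* were below the minimum for testing. In a fit with no minimum on FPKM the log2 change of *Ereg* was 0.32 with an adjusted p of 0.108.

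TGFα (*Tgfa*), a ligand that binds EGFR with high affinity, was at 5.78, 6.68, 4.98 and 5.27 FPKM in WT-veh. In WT-DES it was at 18.0, 8.19, 7.27 and 9.20 FPKM, and all 4 samples were above the highest WT-veh sample although sample 1 was far above the others. The log2 change was 0.73 (SE 0.20, adjusted p = 0.0035) and the ratio of means 1.88. Leaving out WT-DES sample 1 gave a log2 change of 0.47 with an adjusted p of 0.00153, and the ratio of means was then below 1.5, so that the gene was no longer called. That sample also had the highest *Ereg* and *Erbb2* and the lowest *Egfr* of its group, and its smooth muscle markers are given above. The part of these markers in the result was not tested. Under quantile normalization the adjusted p of *Tgfa* was 0.0559. In αERKO-veh it was at 5.64, 5.15, 5.30 and 6.29 FPKM and in αERKO-DES at 5.24, 5.91, 4.69 and 6.17, and both ranges lay within or close to that of WT-veh.

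HB-EGF (*Hbegf*) had the smallest change of the tested ligands with DES in WT. WT-veh samples were at 4.82, 6.05, 6.57 and 6.69 FPKM, WT-DES at 5.48, 4.73, 5.36 and 7.02, αERKO-veh at 5.90, 6.03, 5.38 and 6.09, and αERKO-DES at 6.56, 6.65, 6.34 and 6.06. All 4 groups overlapped. The log2 change in WT-DES against WT-veh was −0.08 with a 95% interval of −0.31 to 0.14 (adjusted p = 0.482), and its sign depended on the scaling of the libraries.

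**Figure D1:**
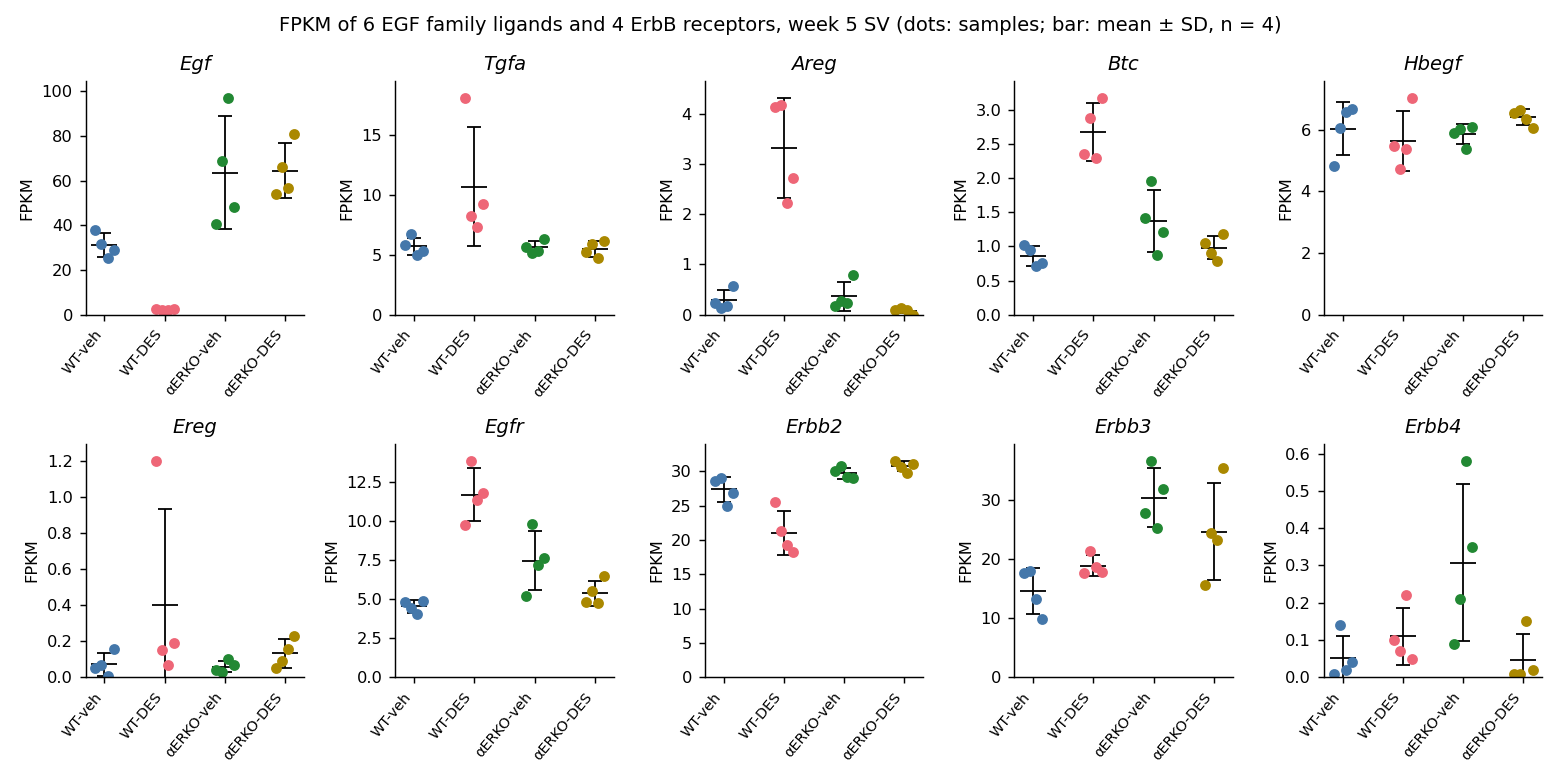
FPKM (linear axis from 0, a different scale for each gene) of the 10 members in the 4 groups. Dots are samples, the horizontal bar is the mean and the whiskers are 1 SD (n = 4). *Egf* lies between 1.90 and 2.51 FPKM in WT-DES and above 25 in all other samples, while *Areg* and *Btc* are highest in the 4 WT-DES samples.

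Among the receptors, *Egfr* rose with DES in WT mice, *Erbb3* and *Egfr* were higher in αERKO-veh than in WT-veh, and no receptor was called with DES in αERKO mice. *Egfr*, the gene for the receptor that all the ligands above bind, was at 4.81, 4.45, 4.02 and 4.88 FPKM in WT-veh. WT-DES samples were at 9.77, 13.8, 11.3 and 11.8 FPKM, all above WT-veh, which gave a ratio of 2.57 and a log2 change of 1.19 (SE 0.15, adjusted p = 3.58e-06). αERKO-veh samples, at 5.20, 9.79, 7.20 and 7.65 FPKM, were also all above WT-veh. The difference was smaller, at 0.59 on the log2 scale (SE 0.15, adjusted p = 0.0131). In αERKO-DES *Egfr* was at 4.82, 5.52, 4.75 and 6.46 FPKM, which overlapped both vehicle groups and lay below each WT-DES sample.

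The higher *Egfr* level in αERKO-veh moved with other properties of the libraries. The correlation across genes between transcript length and level against the mean of all samples (Spearman's rho) ranged from −0.52 to −0.21 in WT-veh and from −0.09 to 0.44 in αERKO-veh, and *Egfr* has a long transcript, of 10208 nt. After correction for this trend its log2 difference was 0.24 with an adjusted p of 0.194. Without αERKO-veh sample 2 the log2 difference was 0.46, the ratio of means was under 1.5 and the call was lost. In WT-DES, where rho was 0.16 to 0.19, *Egfr* was called under every alternative run, but the size of its log2 change depended on the setting, from 0.69 after correction for length to 1.57 with the libraries rescaled to equal totals without the 20 most abundant genes. The difference between its DES effects in WT and αERKO ran from 0.90 to 2.07 on the log2 scale over the alternatives.

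*Erbb2*, the shared partner of the other receptors, was at 28.6, 29.1, 24.9 and 26.8 FPKM for WT-veh, 25.5, 21.3, 19.2 and 18.3 for WT-DES, 30.0, 30.7, 29.1 and 29.1 for αERKO-veh, and 31.5, 30.6, 29.8 and 31.0 for αERKO-DES. WT-DES was the lowest group, but its sample 1 overlapped WT-veh. The log2 difference of −0.37 against WT-veh (SE 0.08) had an adjusted p of 0.000889 and a ratio of 0.771, short of the 1.5-fold needed for a call. When the libraries were rescaled to equal totals without the 20 most abundant genes, the log2 difference was 0.05, and after correction for length it was −0.57 and called.

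For *Erbb3*, the values were 17.6, 17.9, 13.2 and 9.79 FPKM in WT-veh and 27.8, 36.5, 25.2 and 31.8 in αERKO-veh, with no overlap. The ratio was 2.07 and the log2 change 1.03 (SE 0.21, adjusted p = 0.00765), the largest of any member between the vehicle groups. WT-DES samples were at 17.6, 21.4, 18.6 and 17.8 FPKM and overlapped WT-veh (log2 difference 0.38, 95% interval −0.07 to 0.83, adjusted p = 0.12). αERKO-DES samples spread widely, at 15.6, 24.3, 23.2 and 35.3 FPKM, and overlapped every other group. Their log2 difference from WT-veh was 0.69 (SE 0.21, adjusted p = 0.0565).

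*Erbb4*, the receptor for neuregulins and for several EGF ligands, was at 0.01, 0.14, 0.02 and 0.04 FPKM for WT-veh, 0.10, 0.07, 0.22 and 0.05 for WT-DES, 0.09, 0.21, 0.58 and 0.35 for αERKO-veh, and 0.01, 0.01, 0.15 and 0.02 for αERKO-DES. These are the lowest receptor levels in each group. In the fit with no minimum on FPKM, αERKO-veh against WT-veh had a log2 difference of 0.30 and an adjusted p of 0.039, at levels below 1 FPKM in all samples.

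Across the 8 members tested, 5 were called in WT-DES against WT-veh, 4 higher and 1 lower, where 52.7% of all genes tested were called (28.9% higher and 23.9% lower), so the count is near the background. Between αERKO-veh and WT-veh 3 members were called, all higher, against 7.12% of all genes in either direction and 4.5% higher. That background moved with the scaling, from 1139 genes called (63.1% of them higher) to 1573 (92.4% higher) when the libraries were rescaled without the 20 most abundant genes. With DES in αERKO, 0 members passed the limma test, where 1.49% of all genes were called, or 239 genes, against 5 under quantile normalization. *Egfr* was the 1 member with an unadjusted limma p under 0.05 there, with a log2 change of −0.39 and an adjusted p of 0.127. *Areg* could not be called in the 3 comparisons without WT-DES, as both means were below 1 FPKM. The same held for *Btc* in αERKO-DES against WT-veh. In αERKO-DES against WT-veh 1 member was called against 3.18% of all genes, and in αERKO-DES against WT-DES 5 were called against 53.4%. Without WT-DES sample 1 that count was also 5, but *Tgfa* lost its call (log2 change −0.50) and *Erbb2* gained one (0.62, adjusted p = 5.64e-07). Correction for length also gave *Erbb2* a call there (0.67, adjusted p = 2.1e-06). These comparisons share groups and are not independent of each other.

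The difference between the DES effects, that in WT minus that in αERKO, was tested directly as an interaction. It was called for 6 of 8 members, against 56.4% of all genes tested. On the log2 scale it was −3.38 for *Egf* (SE 0.30, adjusted p = 3e-07), 2.05 for *Areg* (SE 0.25, adjusted p = 4.67e-06), 1.57 for *Egfr* (SE 0.21, adjusted p = 9.48e-06) and 1.22 for *Btc* (SE 0.19, adjusted p = 4.59e-05). *Tgfa* (0.75, adjusted p = 0.0239) and *Erbb3* (0.71, adjusted p = 0.0451) passed less firmly. For *Tgfa* the call was lost without WT-DES sample 1 (log2 difference 0.49) and after correction for length (0.57, adjusted p = 0.0713). That correction gave *Erbb2* an interaction call (−0.68, adjusted p = 8.85e-05). For *Erbb3* it held in 12 of 27 alternatives, and neither of its single DES comparisons was called.

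**Figure D2:**
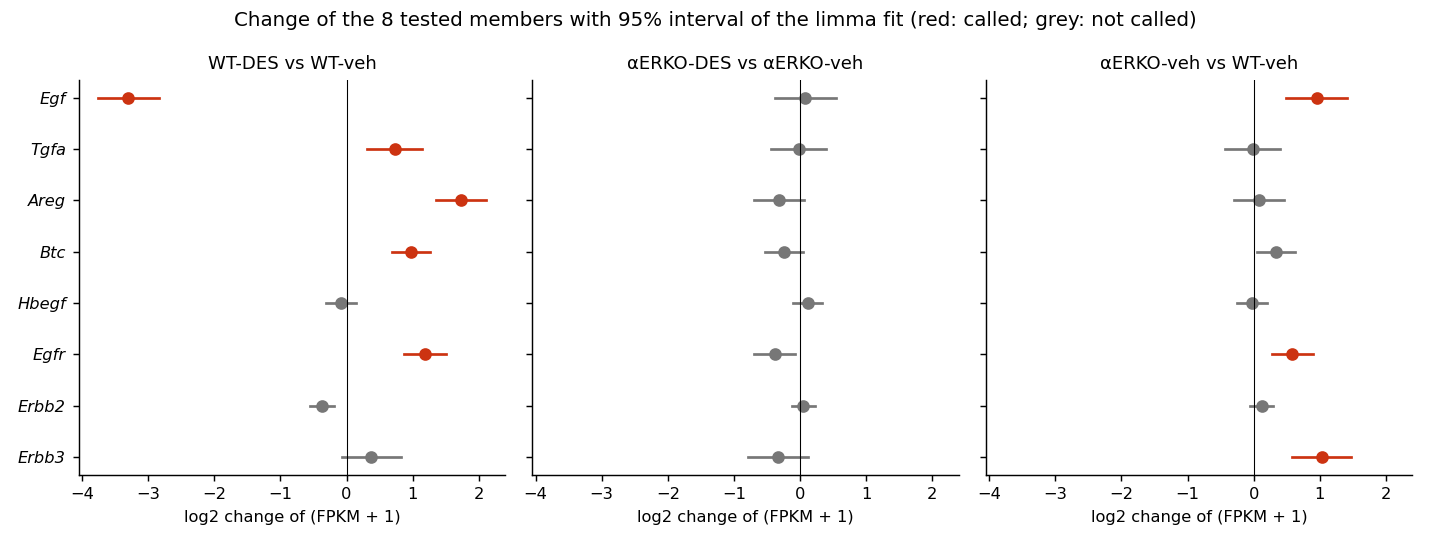
Log2 change of (FPKM + 1) of the 8 tested members in 3 comparisons, as points with the 95% interval of the limma fit. Red members were called and grey ones were not. 5 members are red for DES in WT, none for DES in αERKO and 3 (*Egf*, *Egfr* and *Erbb3*) for αERKO-veh against WT-veh.

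The order of the levels therefore differed between groups. In WT-veh *Egf* had the highest mean of the 10 members, followed by *Erbb2*, and the sample ranges of this pair overlapped. In both αERKO groups *Egf* was also first, and no sample of the second-ranked gene reached its lowest sample. In WT-DES *Egf* ranked 8, below *Areg* and *Btc*, whose ranges overlapped its own, and above *Ereg* and *Erbb4* only. There *Erbb2* and *Erbb3* were the highest members with overlapping ranges, followed by *Egfr* and *Tgfa*, which overlapped each other.

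Summed over the 6 ligands, FPKM was 43.9 ± 5.15 for WT-veh, 24.9 ± 6.24 for WT-DES, 76.9 ± 24.3 for αERKO-veh and 77.6 ± 12.7 for αERKO-DES (SD, n = 4 each). *Egf* made up 9.16% of this sum in WT-DES, against 70.3% for WT-veh, 81.3% for αERKO-veh and 82.9% for αERKO-DES. *Tgfa* held 41.4% of the ligand sum in WT-DES against 13.0% in WT-veh, *Hbegf* 23.5%, *Areg* 13.4% against 0.659% and *Btc* 11.2% against 1.95%. With *Egf* left out, the other 5 ligands summed to 22.7 ± 6.03 FPKM in WT-DES, against 12.9 ± 0.904 for WT-veh, 13.2 ± 1.06 for αERKO-veh and 13.1 ± 0.751 for αERKO-DES (SD, n = 4 each). The ratio of *Egf* to *Tgfa*, which is free of library scaling, ran from 0.135 to 0.273 in WT-DES, against 4.76 to 6.59 for WT-veh, 7.23 to 18.3 for αERKO-veh and 10.3 to 13.1 for αERKO-DES. In every WT-DES sample, then, *Egf* was below *Tgfa*, and in every other sample it was above.

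Receptor composition moved less. *Egfr* made up 22.6% of the receptor sum in WT-DES, against 9.84% for WT-veh, 10.9% for αERKO-veh and 8.88% for αERKO-DES. *Erbb2* held 59.0% in WT-veh and 40.7% in WT-DES, and *Erbb3* 31.0% and 36.5%. The sum itself was 46.6 ± 5.46 FPKM for WT-veh, 51.7 ± 3.88 for WT-DES, 67.8 ± 6.98 for αERKO-veh and 60.7 ± 8.80 for αERKO-DES (SD, n = 4 each). These shares are descriptions and were not tested.

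**Figure D3:**
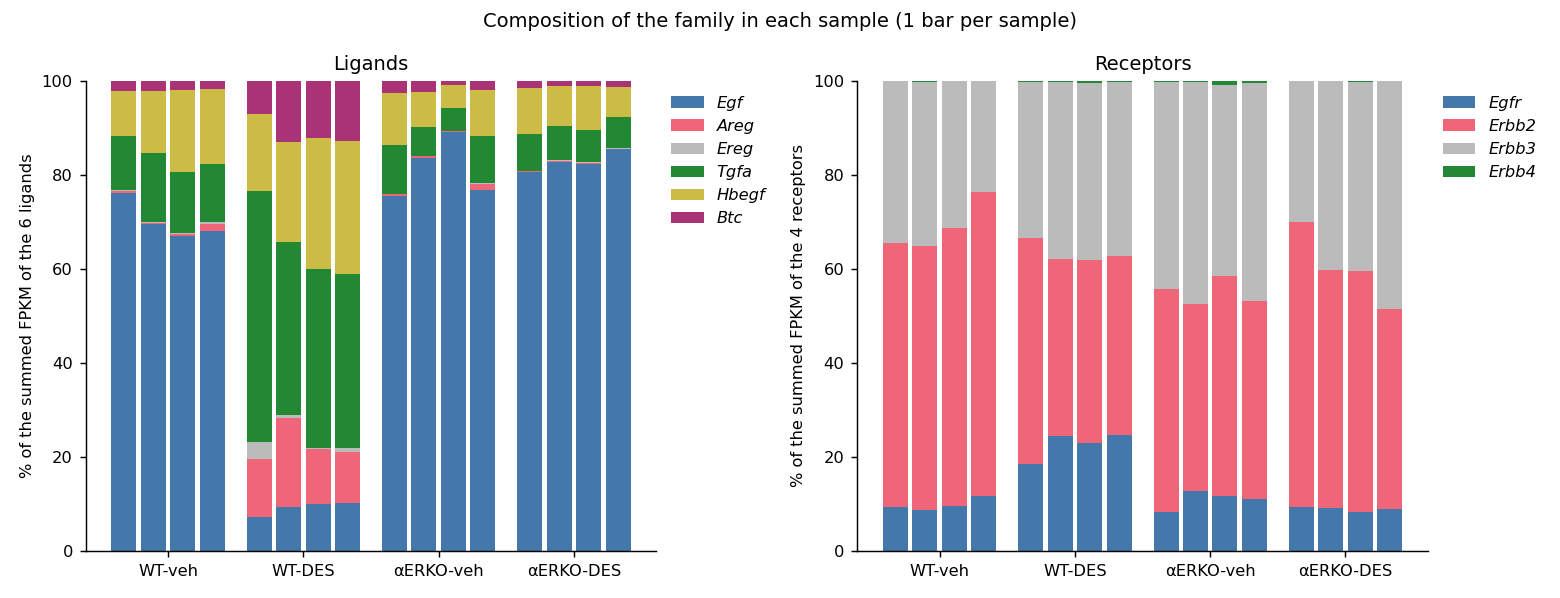
Percent of the summed FPKM held by each of the 6 ligands (left) and 4 receptors (right), with 1 bar per sample and the samples in order of replicate number. *Egf* fills 67.1% or more of the ligand bar in every sample outside WT-DES and at most 10.1% in WT-DES.

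Markers of several cell types moved with the same groups. The 6 epithelium markers summed to 1413 to 1595 FPKM in WT-veh and 740 to 918 in WT-DES, with 4 of 6 called lower, and all 8 SV secretion genes tested were called lower, with sums of 2436 to 7951 FPKM in WT-DES. Basal and stratified epithelium markers summed to 168 to 245 FPKM in WT-veh and 253 to 541 in WT-DES (4 of 6 called higher), leukocyte markers to 67.6 to 120 and 349 to 541 (10 of 10 higher), and fibroblast markers to 731 to 881 and 1916 to 2091 (6 of 6 higher). The 5 anterior prostate markers summed to 3815 to 4369 FPKM in WT-veh and 34.6 to 337 in WT-DES (4 of 5 lower), and adipose markers to 227 to 1098 and 883 to 2039 (5 of 8 higher). Smooth muscle (4 of 6) and skeletal muscle (3 of 12) also held markers called lower in WT-DES, and mast cell and basophil markers (4 of 4 tested) were higher. No defining marker of these lists was at 0 in all samples. In bulk tissue, fewer cells of a type and less RNA per cell cannot be told apart. *Egf* per 100 FPKM of the summed epithelium markers lay within 0.248 to 0.339 in WT-DES against 1.80 to 2.44 in WT-veh. *Areg* per 100 FPKM of epithelium markers was 0.292 to 0.540 in WT-DES against 0.00945 to 0.0364 in WT-veh. The mean sum of the SV secretion genes went from 53058 to 5718 FPKM and that of the anterior prostate markers from 4067 to 155. The part of these cell types in the fall of *Egf* and in the rise of *Areg*, *Btc*, *Tgfa* and *Egfr* was not tested.

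Between the vehicle groups, skeletal muscle was the list with the most markers called. Its sum was 743, 796, 768 and 2325 FPKM in the WT-veh samples and 779, 1907, 2715 and 1713 in αERKO-veh, with 4 of 12 called higher. The other call was 1 of 10 leukocyte markers, which was lower, and the mean leukocyte sum was 93.6 FPKM in WT-veh and 56.3 in αERKO-veh. *Egf* was highest in the αERKO-veh sample with the highest muscle sum, whereas the WT-veh sample with the highest muscle sum, sample 4, was at 28.8 FPKM of *Egf*, below samples 1 and 2 of its group. In αERKO-DES the muscle sum was 599 to 863 FPKM and *Egf* was 54.1 to 81.1 FPKM. There adipose markers had a mean sum of 57.9 FPKM against 691 in WT-veh (5 of 8 called lower) and fibroblast markers 539 against 812 (3 of 6 called lower), and 2 of 4 mast cell and basophil markers and 1 of 10 leukocyte markers were also called lower than in WT-veh. With DES in αERKO, 7 of 12 skeletal muscle, 4 of 8 adipose and 1 of 6 fibroblast markers were called lower. The part of these markers in the higher *Egf*, *Egfr* and *Erbb3* was not tested. Of the epithelium, secretion, fibroblast and smooth muscle markers, none was called between αERKO-veh and WT-veh.

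Around the receptors, 49 genes of the EGF pathway were described in 5 lists, and 46 were tested. In WT-DES against WT-veh 19 were called higher and 5 lower, or 52.2% against 52.7% of all genes, with a median log2 change of 0.33 against −0.01 over all genes tested. Rescaling the libraries without the 20 most abundant genes moved the median of all genes by 0.39 in this comparison. Without WT-DES sample 1, 16 were called higher and 4 lower, and *Braf*, *Dusp4*, *Ptpn1*, *Socs5* and *Etv4* were no longer called, while *Gab1* was then called higher (ratio 1.56, adjusted p = 0.000245). With DES in αERKO 0 of 46 pathway genes were called by limma, against 1.49% of all genes, and between αERKO-veh and WT-veh 5 were higher and 1 lower, against 7.12% of all genes in either direction and 4.5% higher.

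Of the other ligands, the neuregulins *Nrg1* and *Nrg4*, of which NRG1 binds ERBB3 and ERBB4 and NRG4 binds ERBB4, were called higher in WT-DES. *Nrg1* was at 0.64, 0.97, 1.01 and 0.94 FPKM in WT-veh and 2.94, 1.85, 2.02 and 2.23 in WT-DES (log2 change 0.78, SE 0.16, adjusted p = 0.000384). It was also higher in αERKO-veh, at 1.48, 2.60, 1.23 and 1.77 FPKM (log2 change 0.53, adjusted p = 0.024), and no sample overlapped WT-veh, although the call was lost without WT-veh sample 1 or 4 or αERKO-veh sample 2 or 4 (adjusted p = 0.0518 to 0.0874). In αERKO-DES *Nrg1* was at 1.35, 1.79, 2.41 and 1.99 FPKM, above WT-veh and overlapping WT-DES. Its log2 change against WT-veh was 0.60 (adjusted p = 0.0323), and the call was lost without any 1 of WT-veh samples 1, 3 and 4 or of αERKO-DES samples 2 to 4 (adjusted p = 0.06 to 0.112). Against WT-DES the log2 difference was −0.18, with a 95% interval of −0.51 to 0.16 (adjusted p = 0.318). *Nrg4* was at 2.32, 1.22, 2.80 and 3.27 FPKM in WT-veh and 4.11, 9.68, 4.32 and 12.4 in WT-DES (log2 change 1.26, SE 0.31, adjusted p = 0.00204). On the opposite strand *Nrg1* exons overlap 482 nt of *Gm26578*, and *Nrg4* exons overlap 368 nt of the protein-coding *Fbxo22*, which had a mean of 28.3 FPKM in WT-veh and 23.4 in WT-DES. *Nrg2* had means of 3.33 to 4.46 FPKM over the 4 groups and was not called with DES in WT, and *Nrg3* did not pass the minimum.

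Of the 7 genes for ligand shedding, 4 were called higher in WT-DES and none lower, or 57.1% against 52.7% of all genes in either direction and 28.9% higher. *Adam17*, the protease that frees TGFα, amphiregulin and other ligands, rose from a mean of 13.1 to 23.8 FPKM (log2 change 0.82, SE 0.07). *Rhbdf2*, a rhomboid-like protein that carries ADAM17 to the cell surface, rose from 6.12 to 15.1 FPKM, and the rhomboid protease *Rhbdl2* from 2.10 to 5.79. *Nkd2*, which helps deliver TGFα to the membrane, had the largest ratio of the list, 4.02, from 4.97 FPKM in WT-veh.

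Of the 13 receptor inhibitors and turnover genes, 7 were called higher and none lower, or 53.8% against 52.7% of all genes in either direction and 28.9% higher. They included the ubiquitin ligases *Cbl* (2.23 to 7.49 FPKM) and *Cblb* (3.67 to 7.21), which mark EGFR for degradation, and *Lrig1* (4.12 to 11.8) and *Lrig3* (3.17 to 8.32), of which LRIG1 restrains ErbB receptors. *Socs4*, *Ptpn1* and *Socs5* completed the set, the first 2 with ratios of 1.58 and 1.53, and the calls were not firm. *Socs4* lost its call without WT-veh sample 4, *Ptpn1* without WT-DES sample 1, and *Socs5* without any 1 of WT-veh samples 2 to 4 or of WT-DES samples 1 and 4. *Cbl* was also called higher in αERKO-veh (5.70 FPKM, log2 change 1.06, adjusted p = 0.0161), a call lost without WT-veh sample 4 (adjusted p = 0.0526) or αERKO-veh sample 2 (0.0609). *Socs4* was called higher there too (9.29 FPKM, ratio 1.59, adjusted p = 0.0488), but not without any 1 of WT-veh samples 1, 3 and 4 or of αERKO-veh samples 2 to 4.

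Of the 14 adaptors and relay genes, 4 were called, or 28.6% against 52.7% of all genes. *Plcg1*, the phospholipase that EGFR activates, rose from 11.9 to 28.9 FPKM and the kinase *Braf* from 8.09 to 12.9. The *Braf* call was lost without WT-DES sample 1 (ratio 1.31) or WT-veh sample 4 (adjusted p = 0.0501), and the gene was also called higher in αERKO-veh (15.3 FPKM, log2 change 0.85, adjusted p = 0.00976). *Map2k2*, which encodes the kinase MEK2, fell from 124 to 51.5 FPKM and *Hras* from 52.7 to 28.7.

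Of the 9 feedback and response genes tested 7 were called, or 77.8% against 52.7% of all genes, in both directions. The immediate early gene *Egr1* rose from 8.87 to 23.3 FPKM, the ERK phosphatases *Dusp6* from 11.1 to 25.0 and *Dusp4* from 6.73 to 10.5, and the ETS factor *Etv5* from 2.86 to 5.96. *Ccnd1*, the gene for cyclin D1, fell from 174 to 69.3 FPKM, *Myc* from 55.4 to 23.6 and *Etv4* from 7.20 to 4.29. Without WT-DES sample 1 the ratio of *Dusp4* was 1.28 (adjusted p = 0.0521) and its call was lost, as it was without WT-veh sample 3 (ratio 1.49), and *Etv4* had a ratio of 0.667. *Dusp4* was also higher in αERKO-veh and αERKO-DES, with means of 16.8 and 17.0 FPKM (log2 changes 1.20 and 1.21, adjusted p = 0.0034 and 0.0024). *Myc* was the 1 pathway gene called lower in αERKO-veh, at a mean of 36.7 FPKM (ratio 0.662, adjusted p = 0.00739), a call lost without WT-veh sample 2 (ratio 0.729) or αERKO-veh sample 2 (ratio 0.681).

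**Figure D4:**
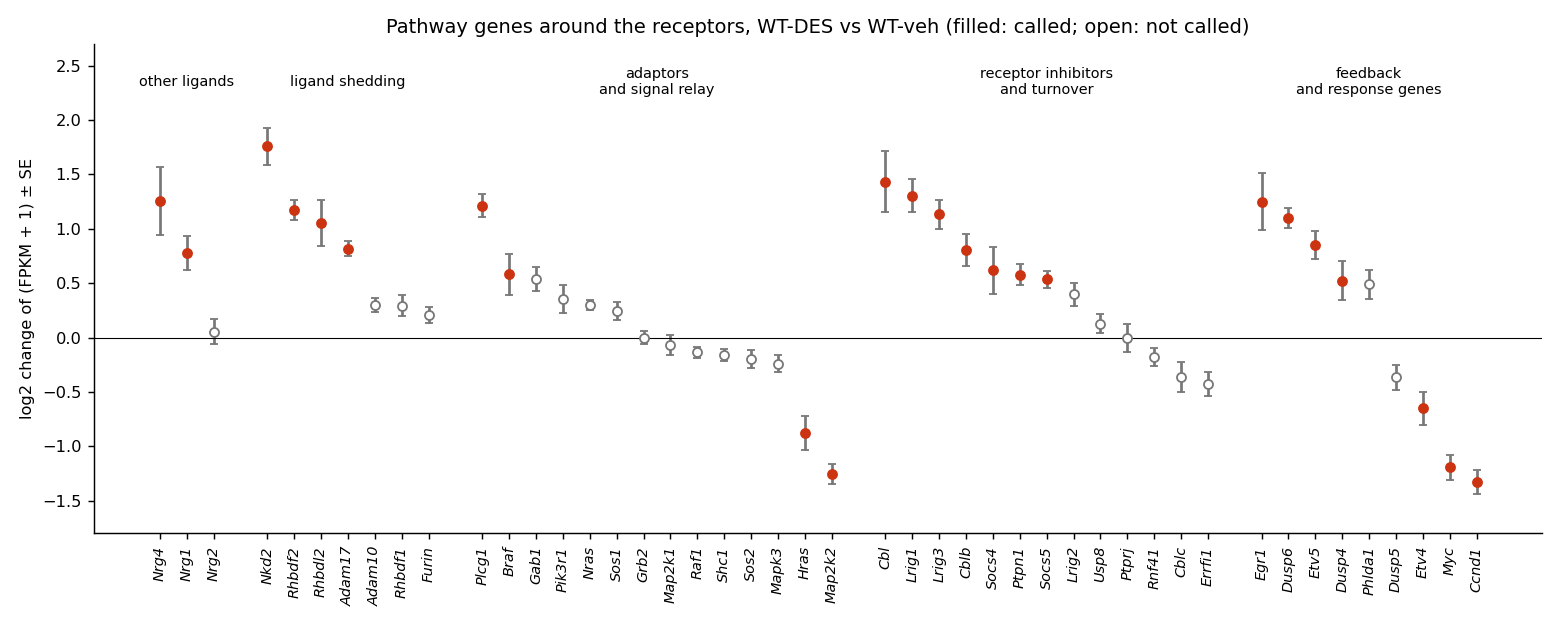
Log2 change of (FPKM + 1), with its SE, of the 46 tested pathway genes in WT-DES against WT-veh, sorted within each list. Filled red points were called and open ones were not. The shedding and inhibitor lists hold called genes above 0 only, with *Nkd2* at 1.76 and *Cbl* at 1.43 at the top, while the relay and response lists hold called genes on both sides, down to −1.33 for *Ccnd1*.

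The genes whose log2(FPKM + 1) followed each called member most closely over the 16 samples were sought among 12351 genes outside the lists above with a mean FPKM of at least 5 in a group. Pearson's r with *Egf* was 0.997 for *Ctns*, a lysosomal cystine transporter, at means of 54.2 FPKM for WT-veh, 17.5 for WT-DES, 74.4 for αERKO-veh and 78.2 for αERKO-DES, and 0.990 for *Vopp1*. *Areg* was most like *Tifa* (0.984) and the membrane protease *Tmprss4* (0.983), *Btc* most like *Otud1* (0.979) and *Gpr146* (0.975), and *Egfr* most like *Uaca* (0.986) and the TGFβ co-receptor *Tgfbr3* (0.976). *Tgfa* was most like *Id4* (0.968) and the chemokine *Cxcl2* (0.960), a gene with a mean of 19.6 FPKM in WT-DES and at most 0.075 in the other groups. These coefficients describe samples that share 4 group levels, and 1276 genes had r above 0.9 with *Egf*, 1229 with *Areg*, 484 with *Btc*, 367 with *Egfr* and 154 with *Tgfa*.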

How the data were processed

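RNA-seq of the SV was measured in 16 samples, grouped by the labels. The authors sequenced paired ends, mapped them to mm10 (GRCm38) with TopHat2 2.0.4 and deposited FPKM per gene from Cufflinks 2.0.2; the tool versions are from the submitters' processing notes, and the gene annotation of the table is not given in the sources used here. The deposited FPKM values carry no depth, so precision rests on the spread of 4 samples.

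The limma package (3.58.1, R 4.3.3) was applied to log2(FPKM + 1) as a single model of the 16 samples with group means and a variance trend (eBayes), with Benjamini-Hochberg adjustment over 15988 genes. An interaction was called by the same p limit, 0.05, and 1.5-fold. The steps were run on simulated data in which 200 genes changed in WT-DES. That simulation had no shift in library composition and far fewer changed genes than the data, so such shifts were not tested. Replicate numbers were not a pairing: deviations of same-numbered samples correlated at −0.21 to 0.28 over 24 pairs, 3 of them over 0.1.

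The alternatives changed the pseudocount to 0.1, the FPKM minimum to 5 or to none, and used median-ratio, quantile and top-20 scaling, the fold from the log2 difference, sample weights, a fit without variance trend or of only the pair of groups compared, a replicate block, an adjusted p of at most 0.01, a length correction (lowess span 0.3 on GENCODE M21 lengths, known for 15049 tested genes) and leaving out each sample. Named genes are the members, *Esr1*, the other ligands, up to 4 called genes per direction of each pathway list (all 7 among the inhibitors, 3 of them named after their values were seen) and the 2 genes most like each member called with DES in WT. Genes left out of the relay list and of its counts are not reported here. Members and lists were chosen with earlier results of these data known. Spink1 and Adgre1 of the marker lists had no row under these symbols. Tables used pandas 2.3.3 and numpy 2.4.6, and figures matplotlib 3.10.9, under Python 3.11.15. Gene and promoter coordinates are on GRCm38.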

Additional observations from a re-analysis of the deposited data

Results flagged for a closer look

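In 64 groups of 4 values, for the members, *Esr1* and the other ligands, the most extreme sample was compared with the rest of its group by the ratio of gap to range, and 4 values passed Dixon's 95% critical value for 4 samples, where chance gives about 1 in 20 groups. These were the highest samples of *Ereg* in WT-DES (1.2 FPKM), *Areg* in αERKO-veh (0.8 FPKM), *Erbb4* in αERKO-DES (0.15 FPKM) and *Nrg3* in αERKO-DES (0.04 FPKM).

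The interaction, the log2 effect of DES in WT less its effect in αERKO, differed from 0 by limma for *Egf* (−3.38), *Areg* (2.05), *Egfr* (1.57), *Btc* (1.22), *Tgfa* (0.75, adjusted p = 0.0239) and *Erbb3* (0.71, adjusted p = 0.0451) among the members. Of the genes beside them it differed for *Esr1* (1.75, adjusted p = 4.66e-05), *Nrg4* (1.83, adjusted p = 0.0018) and *Nrg1* (0.71, adjusted p = 0.0101). *Esr1* is the disrupted gene of the αERKO mice, so that its lower level there is part of the design. The cause of its different response to DES was not tested.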

How the results depend on the processing

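The calls of *Egf*, *Areg* and *Egfr* with DES in WT, in αERKO-DES against WT-DES and in the interaction held under every alternative run, as did *Btc* with DES in WT and *Egf* and *Erbb3* in αERKO-veh against WT-veh. A minimum of 5 FPKM left 3 of 5 called members with DES in WT and 3 of 5 in αERKO-DES against WT-DES, since *Areg* and *Btc* are not tested there. In αERKO-DES against WT-veh, 2 members in place of 1 were called with that minimum and with sample weights, and 0 at an adjusted p of at most 0.01. Leaving out single samples gave 0 to 2 there, and 0 to 1 for DES in αERKO, where *Egfr* was called without αERKO-veh sample 1 (log2 change −0.53, adjusted p = 0.0281). With a replicate block, 5 members in place of 6 had an interaction, *Erbb3* having an adjusted p of 0.0522, and no other call of a member changed. Quantile normalization also ended the calls of *Tgfa* in its 3 comparisons and of *Btc* in αERKO-DES against WT-DES (adjusted p = 0.0929) and in the interaction, while *Hbegf* gained a call in αERKO-DES against WT-DES (0.57) and in the interaction (−0.66). Rescaling without the 20 most abundant genes added *Erbb3* with DES in WT (0.79, adjusted p = 0.00899), moved the median of all genes by 0.39 there and raised the share of calls that were higher from 54.7% to 79.2%. The same rescaling moved that share from 52.4% to 78.8% in the interaction, from 38.0% to 52.3% in αERKO-DES against WT-veh (60.5% under quantile normalization) and from 44.5% to 23.6% in αERKO-DES against WT-DES. No call was reversed under any alternative. Where not stated, the cause of a change was not tested. Depth limits the members below 1 FPKM, whose counts are not known.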
